A study of Mus musculus with 4 samples.

Results

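The 36 genes described here encode the receptors and ligands of 3 families of axon guidance signal in the mouse prefrontal cortex (PFC). They were taken by name from the count tables, which hold 29281 genes over all libraries, and all 36 were found. There were 15 ligands and 21 receptors. The ligands were 5 ephrin A genes, 3 ephrin B genes, 3 Slit genes, 2 netrin genes and 2 netrin-G genes. The receptors were 7 Eph A genes, 5 Eph B genes, 3 Robo genes, *Dcc* and *Neo1*, and 4 Unc5 genes.

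Single cells were taken from the PFC of C57BL/6J mice (C57BL/6 in the sample labels) at postnatal days 1, 4 and 10 (P1, P4, P10) and in adulthood at day 84 (Adult), with 1 library per age. No treatment or engineered allele is named, and the methods give 2 female mice per age. The tables do not say which mouse a cell came from, so each age was 1 sample, no difference between ages could be tested, and the intervals below cover counting error only. Between 11545 and 19014 cells per library passed the study's limits on counts, genes and mitochondrial share. Medians were 11065 to 25800 unique molecular identifiers (UMIs, 1 per captured transcript) per cell. The study also removed likely doublets and low-quality clusters with markers of several cell types, and these steps were not repeated.

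The P1 library stood apart. Its table was made with pipeline version 1.11 and kept intronic reads. The other tables came from version 1.8, and their headers do not say whether intronic reads were kept. The P1 header gives the library name as P0. In addition, 4 Y-linked genes summed to 120 CPM (UMIs scaled to a common total) at P1 and to 0.126 to 0.19 CPM at the other ages, although the methods give female mice. The P1 library shared 12 to 20 cell barcodes with each other library, 0.103% to 0.171% of the smaller one. The other pairs shared 319 to 368, 2% to 2.31% of the smaller one. The overlap that chance would give was not worked out, so shared barcodes are not read as shared cells. The span from P4 to Adult was therefore taken as the main comparison of ages, and each result that rests on P1 is given beside it.

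Eph receptors bind ephrins that sit on the membrane of a neighbouring cell, so that signals pass at contact and in both directions. A-type receptors mostly bind lipid-anchored ephrin A ligands and B-type receptors mostly bind transmembrane ephrin B ligands, with *Epha4* binding both. Slits are secreted, and they repel axons through Robo receptors. Netrins are secreted too. *Dcc* mediates attraction to netrin-1, Unc5 receptors mediate repulsion, and *Neo1*, a relative of *Dcc*, also binds repulsive guidance molecules. Netrin-G proteins are anchored to the membrane and act at synapses through their own ligands rather than through *Dcc*.

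Cells were grouped by marker genes into neurons and non-neuronal classes, named "X-like" because no deposited annotation was used. A class is called highest or next only among these named classes. The intratelencephalic (IT) neurons, which project within the telencephalon, formed the largest class with 4395, 7709, 4388 and 4055 cells at P1, P4, P10 and Adult. All 10 IT markers were detected in them at each age, and their sum went from 5835 CPM at P1 to 3635, 2044 and 1398 CPM at P4, P10 and Adult. Levels are given as CPM, the UMIs of a gene in a class scaled to the total of that class, which leaves out mitochondrial genes and genes of ribosomal proteins. They are not scaled to transcript length, so levels are compared across classes and ages and not between genes.

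Microglia-like cells served as the class in which RNA of neuronal genes is background. At P4 this class had only 86 cells and held 144 CPM of *Efnb3*, 153 CPM of *Neo1* and 129 CPM of *Robo2*. At Adult, with 1045 cells, the same genes were at 26.3, 17.2 and 19.5 CPM. The summed IT markers in microglia-like cells went the same way, from 1462 CPM at P4 to 545 at P10 and 360 at Adult. Of the members that could be compared, IT-like neurons exceeded the microglia-like level at least 2-fold for 12 of 27 at P4, for 27 of 30 at P10 and for 26 of 27 at Adult. The microglia-like value of the same library is printed beside some of the levels that come near it. Where a level is not clearly above that value, the part of RNA from other cells in it was not tested.

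**Figure D1:**
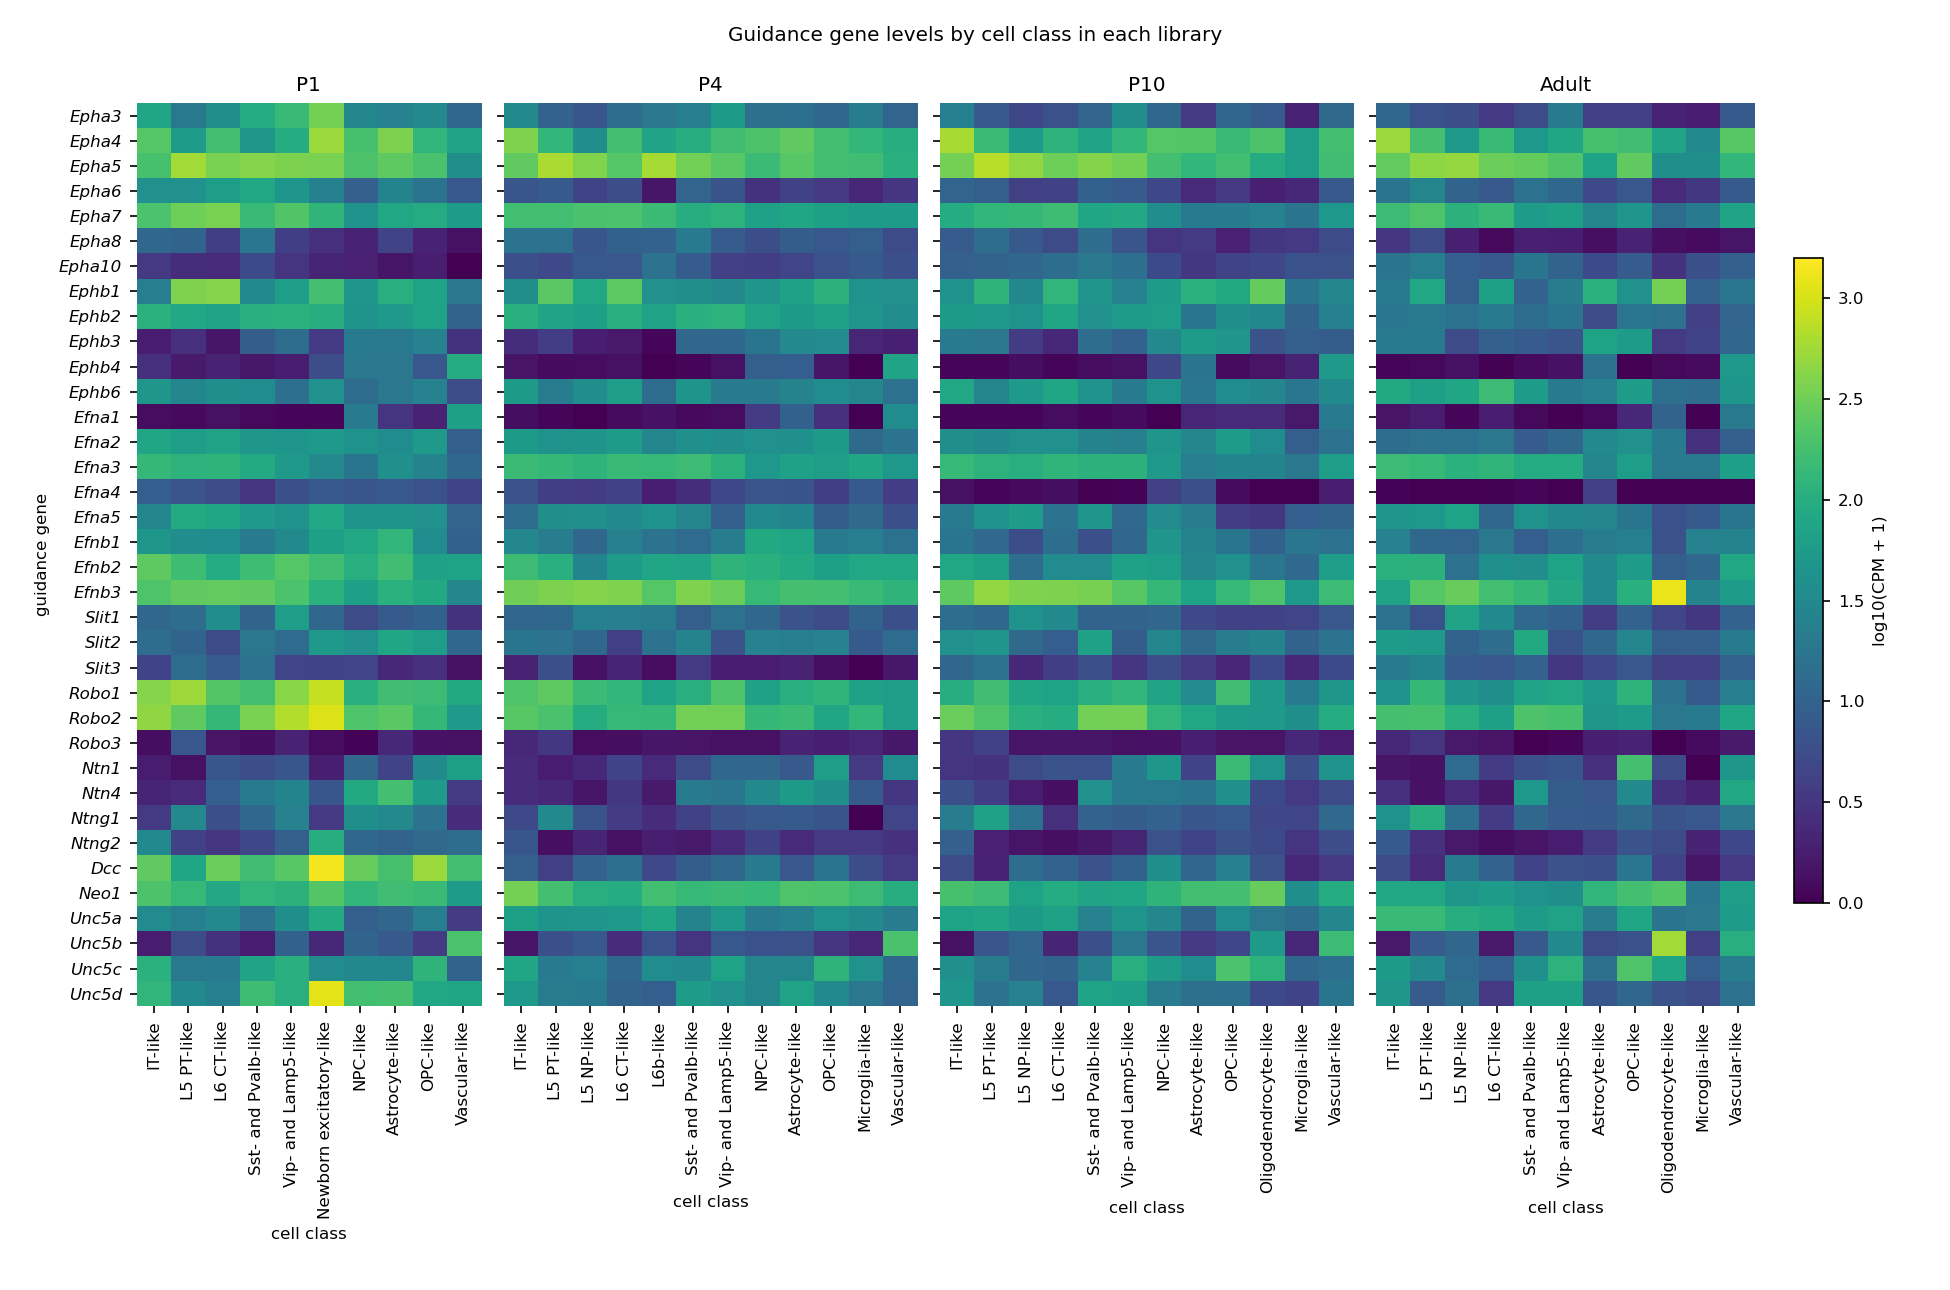
Level of the 36 guidance genes as log10(CPM + 1) (colour) in each cell class (columns) of the 4 libraries, with genes as rows grouped by family. *Efnb3* (1286 CPM) and *Unc5b* (564 CPM) are highest in adult oligodendrocyte-like cells, *Dcc* (1390 CPM) and *Unc5d* (1177 CPM) in newborn excitatory-like neurons at P1.

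In IT-like neurons, 8 guidance genes were higher in Adult than in P4 by 2-fold or more and 8 were lower, of 30 measured. A gene was measured where 1 of the 2 libraries held at least 10 UMIs and 5 CPM. Among all 10960 genes measured in the same comparison, 16.5% were higher and 20% were lower. At 4-fold, 3 members were higher and 7 lower, against 7.13% and 6.65% of all genes. The members' median log2 ratio was -0.10 and that of all genes -0.15.

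Among the receptors lower in adult IT-like neurons, *Ephb2*, a B-type Eph receptor also found at excitatory synapses, was at 109, 107, 54.3 and 16.9 CPM at P1, P4, P10 and Adult. Its log2 ratio of Adult over P4 was -2.66 (95% counting interval -2.75 to -2.58). *Robo1*, a Slit receptor, was at 419, 207, 96.2 and 43.6 CPM, with a log2 ratio of -2.24 (-2.30 to -2.19). Both were lower at each later age from P4 onward. The microglia-like level of *Robo1* was 67.5 CPM at P4 and 7.07 CPM at Adult.

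*Neo1* was at 204, 335, 186 and 80 CPM in the same class, highest at P4, and its log2 ratio of Adult over P4 was -2.06 (-2.10 to -2.03). *Epha8* was at 10.6, 15.6, 7.35 and 2.23 CPM, with a log2 ratio of -2.80 (-3.04 to -2.58). *Epha3* was at 74.2, 33.1, 22.9 and 11 CPM, with a log2 ratio of -1.59.

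Among the ligands, *Efnb3*, a transmembrane ephrin, was at 205, 317, 256 and 68 CPM in IT-like neurons and had a log2 ratio of -2.22 (-2.26 to -2.18). *Efna2* was at 77.4, 54.2, 36.8 and 13.3 CPM, with a log2 ratio of -2.03 (-2.12 to -1.93). *Efna4* was at 8.1, 5.32, 0.375 and 0.0648 CPM, the last of these resting on 5 UMIs, and its log2 ratio was -6.36 (-7.99 to -5.13). Each of the 3 ephrins was lowest in the adult library.

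The members that were higher in adult IT-like neurons included 2 of the 3 Slit genes. *Slit3* was at 3.4, 0.997, 10.3 and 20 CPM, with a log2 ratio of Adult over P4 of 4.33 (4.05 to 4.62). *Slit2* was at 12.8, 16.5, 40.4 and 55.9 CPM, with a log2 ratio of 1.77 (1.69 to 1.84). *Slit1* had a log2 ratio of 0.53 and was not called, and its P4 level of 10.3 CPM was close to the 9.47 CPM of microglia-like cells. Thus 2 ligands were higher in the class in which their receptor *Robo1* was lower, while *Robo2*, the other main Slit receptor, was at 471, 235, 293 and 179 CPM and did not pass 2-fold from P4 to Adult (log2 ratio -0.39, -0.42 to -0.36).

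*Ephb3* was at 0.784, 1.62, 19.4 and 20.7 CPM in IT-like neurons, with a log2 ratio of 3.67 (3.45 to 3.90), opposite in direction to *Ephb2*. *Ntng1*, a netrin-G that binds the synaptic adhesion protein encoded by *Lrrc4c*, was at 2.54, 4.05, 21 and 41.3 CPM, with a log2 ratio of 3.35 (3.21 to 3.49). *Ephb3* differed little between P10 and Adult, whereas *Ntng1* was higher at each later age. *Efna5*, *Epha10*, *Epha6* and *Unc5a* were the other members called higher, with log2 ratios of 1.88, 1.68, 1.38 and 1.13.

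Promoters were read from RefSeq for the 31 of 36 members matched on GRCm38.p6. They are shown for 3 members whose levels differed between classes or ages: *Ephb3*, higher in adult IT-like neurons and astrocyte-like cells, *Efna4*, the member with the largest fall in IT-like neurons, and *Unc5b*, high in adult oligodendrocyte-like cells. Bases upstream of the start site are printed from 5′ to 3′ on the gene's strand, with CG dinucleotides in capitals. The *Ephb3* stretch lies at chr16:21204545-21204754 on the plus strand, that of *Efna4* at chr3:89338029-89338278 and that of *Unc5b* at chr10:60831582-60831831, both on the minus strand.
Ephb3: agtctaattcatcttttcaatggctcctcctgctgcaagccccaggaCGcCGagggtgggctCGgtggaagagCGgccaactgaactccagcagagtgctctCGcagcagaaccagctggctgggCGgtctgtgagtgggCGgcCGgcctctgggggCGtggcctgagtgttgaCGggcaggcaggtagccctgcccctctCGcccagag
Efna4: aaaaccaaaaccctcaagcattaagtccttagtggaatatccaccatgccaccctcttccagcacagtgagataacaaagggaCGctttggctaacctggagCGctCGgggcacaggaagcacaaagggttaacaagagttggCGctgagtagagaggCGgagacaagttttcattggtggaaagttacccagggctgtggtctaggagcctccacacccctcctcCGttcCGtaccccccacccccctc
Unc5b: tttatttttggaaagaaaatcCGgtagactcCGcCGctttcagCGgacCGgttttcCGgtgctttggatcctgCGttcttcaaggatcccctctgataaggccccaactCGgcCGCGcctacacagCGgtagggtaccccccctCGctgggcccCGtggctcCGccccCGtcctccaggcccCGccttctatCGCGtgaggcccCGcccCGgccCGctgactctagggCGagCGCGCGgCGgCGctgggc
The 3 stretches hold 11, 7 and 27 CG dinucleotides. The *Ephb3* stretch has 210 bases and the others have 250. Over the 250 bases upstream of its RefSeq start, *Ephb3* holds 16. Over the 250 bases upstream of the RefSeq start, the median was 20 in the 31 members and 6 in all 32851 promoters. Of the 31, 29 held at least 10, against 37.8% of all promoters. For some members the GENCODE start lies further upstream, so part of these 250 bases is inside the annotated gene. CAGATG, searched on both strands of 300-base promoter windows, was present in 3 of the 31 members and in 17.2% of all 32851 promoters. ACAAAG was present in 2 and in 18.7%, and CCGGAAG in 1 and in 8.86%.

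**Figure D2:**
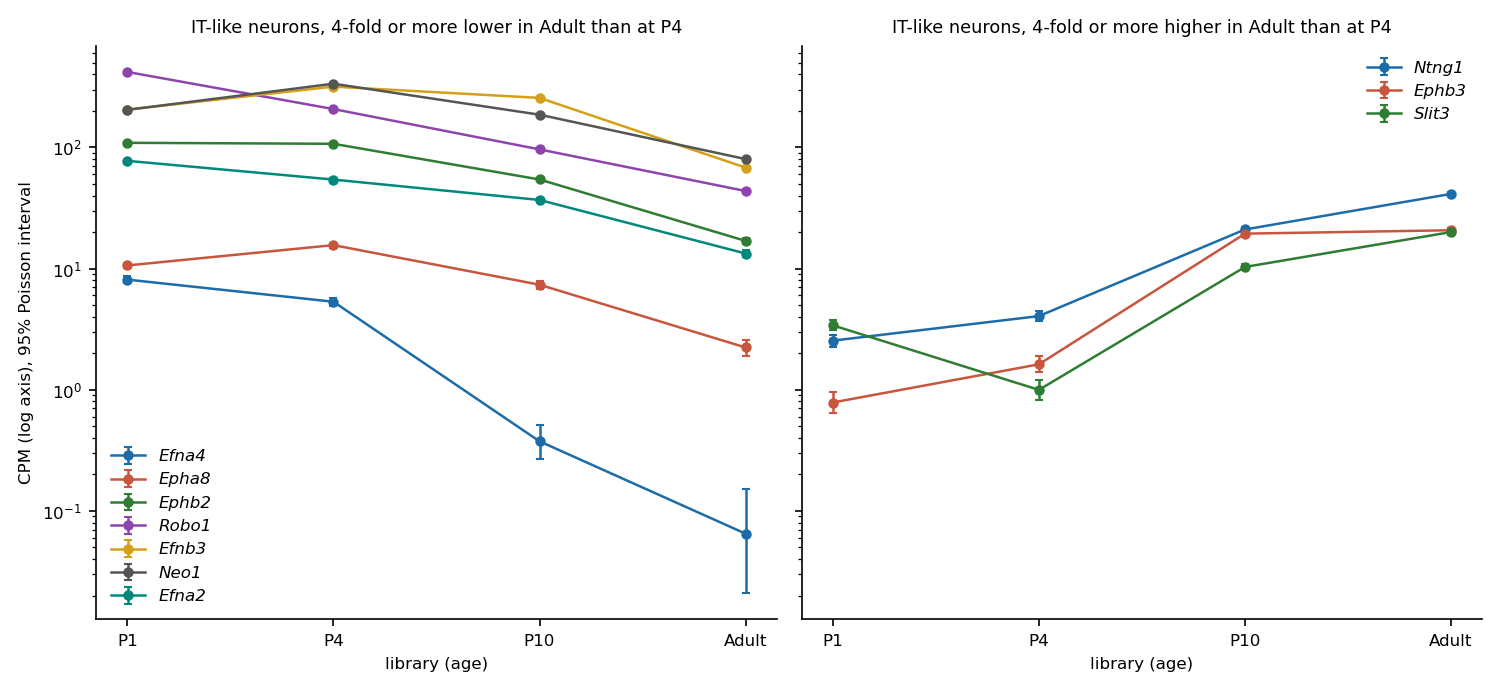
CPM (log axis) in IT-like neurons at P1, P4, P10 and Adult for the 10 members that differed at least 4-fold between P4 and Adult, 7 lower and 3 higher; bars are exact 95% Poisson intervals. *Slit3*, *Ephb3* and *Ntng1* sit at 0.997 to 4.05 CPM at P4 and at 20 to 41.3 CPM at Adult.

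Several abundant receptors stayed within 2-fold between P4 and Adult. *Epha4* was at 225, 385, 605 and 526 CPM in IT-like neurons, with a log2 ratio of 0.45. *Epha5* was at 184, 264, 334 and 267 CPM, with a log2 ratio of 0.01, and *Efna3*, an ephrin A ligand, was at 134, 151, 138 and 155 CPM, with a log2 ratio of 0.04. The log2 ratios of the 14 measured members within 2-fold ran from -0.87 in *Dcc* to 0.64 in *Ephb6*, with *Ephb1* at -0.83. *Efna1*, *Ephb4*, *Ntn1*, *Ntn4*, *Robo3* and *Unc5b* did not reach the level needed to be measured in this class.

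**Figure D3:**
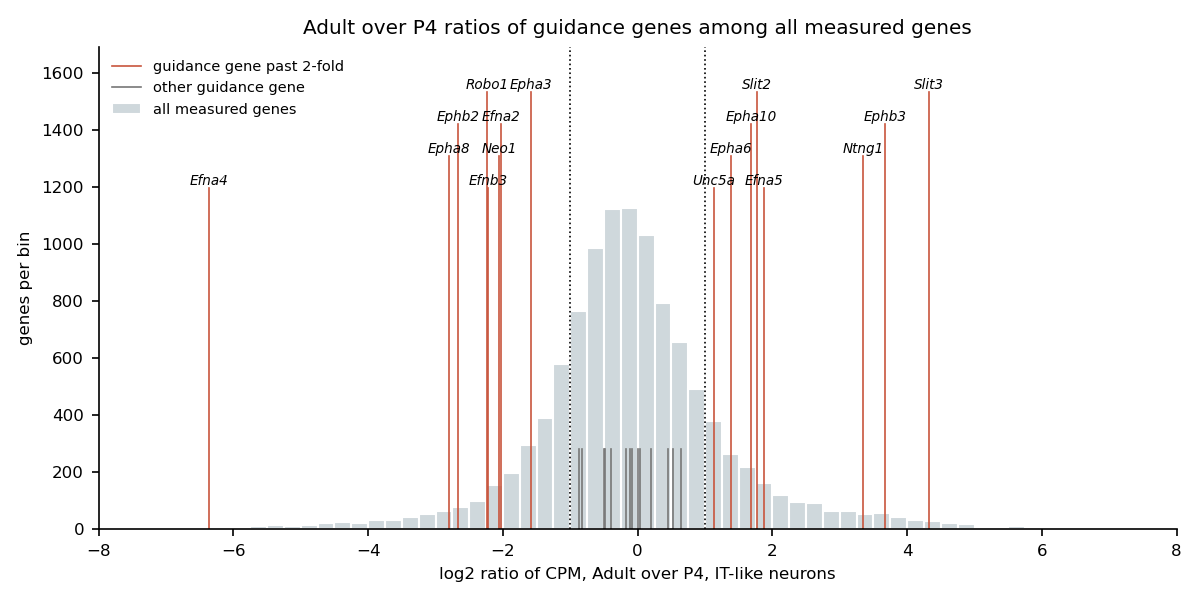
Histogram of the log2 ratio of CPM, Adult over P4, of the 10960 genes measured in IT-like neurons (bars), with the 16 guidance genes past 2-fold (dotted lines) marked and named and the other 14 as short lines. *Efna4* (-6.36) and *Slit3* (4.33) are the members farthest from 0.

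In IT-like neurons from P4 to P10, 5 of 31 members were higher and 3 lower, against 8.26% and 8.24% of all genes. From P10 to Adult, 2 of 29 were higher and 9 lower, against 8.61% and 8.99%. Counts of both steps moved under other settings, as listed in the section on processing. The members' median log2 ratios in these steps were 0.12 and 0.09, beside -0.10 and -0.05 for all genes. The median of the first step became -0.17 beside -0.09 with minimums of 30 UMIs and 20 CPM, and -0.01 beside 0.02 without a minimum.

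From P1 to P4, 1 of 27 members was higher and 8 were lower, against 6.15% and 9.71% of all genes. Both counts moved under other settings, as listed in the section on processing. *Dcc* differed most: it was at 262, 8.36, 4.4 and 4.56 CPM, a log2 ratio of P4 over P1 of -4.97 (-5.07 to -4.88). *Epha6*, *Ntng2*, *Unc5d*, *Efna5*, *Epha3* and *Robo1* were also called lower, with log2 ratios of -2.73, -2.40, -1.30, -1.22, -1.16 and -1.02, and *Robo2* was just past 2-fold. *Unc5d*, a receptor carried by migrating upper-layer neurons, was at 128, 52.2, 46.4 and 49.1 CPM. Without the P1 library, *Dcc*, *Unc5d* and *Robo2* were within 2-fold (Adult over P4, log2 ratios -0.87, -0.09 and -0.39). *Robo1* was lower there as well.

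The P1 difference in *Dcc* was found in every class present at P1 and P4. OPC-like cells, the precursors of oligodendrocytes, held 520, 16.2, 24.1 and 17.3 CPM of *Dcc*. Astrocyte-like cells held 186 CPM at P1 and 6.4 CPM at P4, and vascular-like cells held 168, 2.48, 2.39 and 2.41 CPM. Long genes as a whole were lower in P4 than in P1. Among 200 measured genes that span more than 500 kb, the median log2 ratio in IT-like neurons was -0.92 and 48.5% were lower by 2-fold or more. From P4 to Adult the corresponding values over 184 genes were 0.30 and 15.2%. *Dcc* spans 1097436 bases, *Epha6* 952049, *Robo1* 737790, *Slit3* 587284, *Unc5d* 572920 and *Robo2* 519987. The parts of intronic reads, pipeline version, the mice and their sex, and age in the P1 difference cannot be told apart with these libraries.

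**Figure D4:**
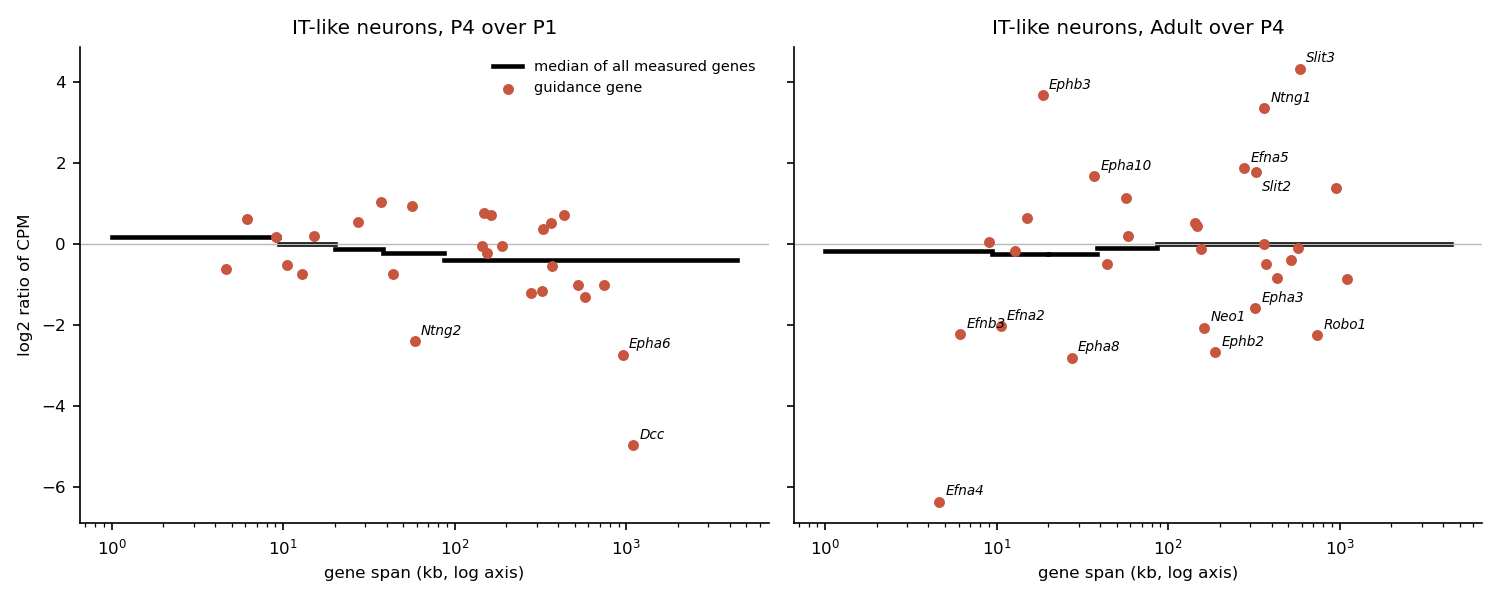
Log2 ratio of CPM in IT-like neurons against gene span in kb (log axis) for guidance genes (points) and the median of all measured genes in 5 bins of span (lines), for P4 over P1 (left) and Adult over P4 (right); the members farthest from 0 are named. The median of all genes falls from 0.18 in the shortest to -0.40 in the longest bin on the left and runs from -0.16 to 0.01 on the right.

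A newborn excitatory-like class of 447 cells was named at P1 and at no other age. At P4, 21 cells led by *Eomes*, *Mdk* and *Igfbpl1* lay within the IT-like class and were not separated from it. It held 1390 CPM of *Dcc*, 1177 CPM of *Unc5d*, 1070 CPM of *Robo2* and 820 CPM of *Robo1*. *Unc5d* was 9.17-fold (8.93 to 9.42) above IT-like neurons of the same library, *Dcc* 5.3-fold, *Epha3* 4.59-fold and *Slit2* 3.98-fold. *Unc5d* was detected in 79% of these cells (74.9% to 82.7%, exact binomial) after each cell was thinned to 2000 UMIs, and in 97.5% without thinning. No class free of neuronal RNA was large enough at P1 to give a background share, since microglia-like cells numbered 34. Vascular-like cells had the lowest share among the non-neuronal classes, 8.93% (4.36% to 15.8%) thinned and 18.8% without thinning, and median UMIs per cell were 16203 in the newborn and 23897 in the vascular-like class. The newborn class had the highest level of any class for 9 of 36 members, 8 of them receptors, whereas it led 10.8% of all genes. Over IT-like neurons, 11 of 27 members were higher and 3 lower by 2-fold or more, against 10.9% and 11.3% of all genes. Both classes come from the P1 library, which kept intronic reads, and the part of intronic reads in these differences was not tested.

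The level of some members differed between IT-like neurons of different layers. Layers 2/3, 5 and 6 were named, with 854, 845 and 849 of 4388 IT-like cells at P10 and 1128, 924 and 730 of 4055 at Adult. The other cells got no layer, among them an adult subcluster of 996 cells led by *Tnnc1* and *Rorb*. No layer 4/5 group was named. At P10, 14 of 30 members differed at least 2-fold between the layer with the highest and the layer with the lowest level, against 14.5% of all genes, and at Adult 9 of 28 did, against 11.1%. *Ntng1* was highest in layer 5, at 5.02, 37.9 and 19.8 CPM in layers 2/3, 5 and 6 at P10 and at 17.3, 61.2 and 26.8 CPM at Adult. *Epha4* was at 669, 630 and 301 CPM at P10 and at 532, 480 and 381 CPM at Adult, where it was within 2-fold. In adult neurons *Robo1* was at 76.5, 25.4 and 38.5 CPM, and *Robo2*, with the opposite order of layers 2/3 and 5, was at 107, 225 and 149 CPM. *Slit2* was at 41.1, 72.4 and 28.1 CPM. At P10 the highest layer was 2.46-fold the lowest for *Robo1*, 1.72-fold for *Robo2* and 1.74-fold for *Slit2*. The layers were not compared between ages.

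Across the 6 neuron classes present in both libraries, *Ephb2*, *Epha8* and *Efna2* were lower in Adult than in P4 by 2-fold or more in each, 3 of the 24 members measured in all 6. Of all 10027 genes measured in all 6, 8.44% were lower in each, and 6.37% were higher in each, among them no member. *Neo1* was lower in 5 of the 6, and *Slit3* was higher in all 5 in which it was measured. *Unc5a*, *Slit2*, *Ntng1* and *Epha10* were each higher in 4, and *Epha3*, *Ephb1*, *Efnb3* and *Robo1* were each lower in 4. At P4, *Neo1* was at 335 CPM in IT-like and 176 CPM in L5 PT-like neurons, beside 153 CPM (128 to 181) in microglia-like cells. The L5 NP-like, L6 CT-like, Sst- and Pvalb-like, and Vip- and Lamp5-like classes held 102, 93.6, 139 and 149 CPM, below the microglia-like level. The part of RNA from other cells in the *Neo1* count was not tested. *Efna5*, *Slit1*, *Ntn4* and *Dcc* were higher in some classes and lower in others. Of the 29 members measured in at least 4 classes, 8 were lower and 5 higher in at least 4, against 15.5% and 11.6% of all 10706 such genes. *Ephb4*, *Efna1* and *Robo3* were measured in none. The classes come from the same 2 libraries, so they are not separate evidence for an age difference.

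L5 PT-like neurons, which project below the cortex, had 8 of 28 members higher and 8 lower in Adult than in P4, against 15.3% and 17.4% of all genes. They had the highest adult level of 10 of 36 members, whereas they led 6.7% of all genes. Some of the 10 were low or nearly level with the next class. *Robo3* and *Epha8* were at 2.09 and 4.42 CPM. *Efnb2* and *Unc5a* were each 1.03-fold the level of IT-like neurons (0.974 to 1.08 and 0.983 to 1.07). *Ntng1* was at 31.2, 33, 66.2 and 97.7 CPM in this class, and its adult level was 2.37-fold (2.23 to 2.51) that of IT-like neurons, the next class. *Robo1* was at 135 CPM in the adult library, 1.14-fold (1.02 to 1.28) the level in OPC-like cells. *Epha5* was at 576, 619, 722 and 449 CPM, and in the adult library it was lower than in L5 NP-like neurons, at 498 CPM.

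*Ephb1* was highest in deep projection neurons at P1 and P4. It was at 385, 239, 121 and 78.8 CPM in L5 PT-like neurons and at 419, 249, 126 and 64.1 CPM in L6 CT-like neurons, which project to the thalamus. IT-like neurons held 22.4, 36.9, 42.6 and 20.7 CPM. The log2 ratios of Adult over P4 were -1.60 (-1.69 to -1.51) and -1.96 (-2.05 to -1.87) in the first 2 classes and -3.29 (-3.68 to -2.92) in L5 NP-like neurons, where *Ephb1* was at 81.5, 30.3 and 8.35 CPM at P4, P10 and Adult. The microglia-like level was 41.4 CPM at P4 and 9.09 CPM at Adult.

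In L6 CT-like neurons 4 of 27 members were higher and 10 lower, against 14.1% and 21% of all genes. *Ephb6*, an Eph receptor without kinase activity, was at 38.2, 61.8, 75.6 and 156 CPM there. *Efna5* was lower in this class (32.6 CPM at P4 and 11.1 CPM at Adult) and higher in IT-like neurons (12.4 and 45.3 CPM). In L5 NP-like neurons 8 of 29 were higher and 6 lower, against 15.7% and 18.3%. *Slit1* was at 24.6, 42.4 and 69.1 CPM there from P4 to Adult, and the adult level was 2.17-fold (1.92 to 2.44) that of L6 CT-like neurons. *Dcc* was at 9.25 CPM at P4 and 19.4 CPM at Adult in L5 NP-like neurons, and *Ntn1*, the attractant that binds it, was at 1.28 and 12.1 CPM.

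Among inhibitory neurons, the Sst- and Pvalb-like class had 7 of 31 members higher and 8 lower, against 14.5% and 19.6% of all genes. *Slit2* was at 17.4, 26.2, 66.7 and 86.7 CPM, the highest adult level of any class. At P1 all 1257 cells of the class lay in Sst-like clusters, so its makeup at P1 differed from that at later ages. The makeup also differed between P4 and Adult. The Pvalb lineage gave 8277981 of the 24818003 UMIs summed for the class at P4 and 8747596 of 17267140 at Adult. The part of this shift in the counts of members and in the levels of the joint class was not tested. Clusters of the Pvalb lineage held 48.6, 96.2 and 161 CPM of *Slit2* from P4 to Adult, and Sst-like clusters held 17.4, 14.9, 27.5 and 10.6 CPM from P1 to Adult. *Ntn4* was at 19.3, 19.1, 40.1 and 50.2 CPM in the joint class. *Robo2* was at 362, 329, 326 and 204 CPM, a log2 ratio of -0.69.

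In Vip- and Lamp5-like neurons 3 of 30 members were higher and 9 lower, against 14.4% and 17.3% of all genes. *Unc5b*, an Unc5 receptor best known from blood vessels, was at 6.53 CPM at P4 and 33.2 CPM at Adult, a log2 ratio of 2.35 (1.89 to 2.83). *Epha3* was at 146, 54.8, 37.2 and 20.7 CPM, and *Robo2* was at 669, 328, 340 and 184 CPM. *Unc5d* was at 104, 40.5, 62.5 and 65.2 CPM.

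The oligodendrocyte-like class, present at P10 with 234 cells and at Adult with 1022, had 4 of 26 members higher and 11 lower in Adult than in P10, against 9.45% and 23.4% of all genes. Without Scrublet-marked cells, 4 of 23 were lower, against 22.5% of all genes. At 4-fold, 3 members were higher, against 3.91% of all genes, and 2 lower, against 6.73%. *Efnb3* was at 209 CPM at P10 and 1286 CPM at Adult, a log2 ratio of 2.62 (2.48 to 2.76). *Unc5b* was at 51.9 and 564 CPM, a log2 ratio of 3.44 (3.17 to 3.73). Both were higher in this class than in any other at Adult, *Efnb3* by 4.47-fold (4.26 to 4.69) over L5 NP-like neurons and *Unc5b* by 5.63-fold (5.15 to 6.16) over vascular-like cells.

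The 2 genes were also found in more oligodendrocyte-like cells. With cells thinned to 2000 UMIs, *Efnb3* was detected in 13.7% of them (9.55% to 18.8%) at P10 and 86.8% (84.6% to 88.8%) at Adult, and without thinning in 33.8% and 96.5%. In microglia-like cells the thinned shares of *Efnb3* were 6.63% and 4.41%. *Unc5b* was detected in 4.27% and 64.6% of thinned oligodendrocyte-like cells, in 11.1% and 88% without thinning, and in 0.432% and 0.672% of thinned microglia-like cells. Median UMIs per cell were 8265 and 4790 in oligodendrocyte-like cells and 4519 and 4258 in microglia-like cells. *Efna1*, an ephrin A ligand, was the other member higher by 4-fold or more, at 1.4 and 9.53 CPM. The P10 cells still carried genes of committed precursors: that marker list summed to 12341 CPM at P10 and 1695 CPM at Adult, while the list of mature oligodendrocyte genes went from 30465 to 81381 CPM. The part of this shift in the 2 results was not tested.

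*Ephb1*, a receptor for ephrin B ligands, was at 280 CPM at P10 and 343 CPM at Adult in oligodendrocyte-like cells, and the adult level was 3.15-fold (2.87 to 3.45) that of astrocyte-like cells. *Neo1* was at 284 and 219 CPM there. Thus oligodendrocyte-like cells had the highest adult level of an ephrin B ligand and of one of its receptors. They led 4 of 36 members and 9.4% of all genes, a share close to that of the members.

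*Ntn1*, which encodes netrin-1, had the opposite pattern along the lineage. OPC-like cells held 31.6, 60.7, 152 and 180 CPM, a log2 ratio of Adult over P4 of 1.57 (1.37 to 1.77), and the share of thinned cells with a UMI was 7.05%, 13.9%, 23.1% and 35.9%, and without thinning it was 31.3%, 32.6%, 44% and 60.3%. Oligodendrocyte-like cells held 43 CPM at P10 and 4.32 CPM at Adult, a log2 ratio of -3.32 (-4.03 to -2.66). The P10 cells carried more RNA of committed precursor genes, as given above, and the part of this shift in the *Ntn1* ratio was not tested. No *Ntn1* UMI was found in adult microglia-like cells, where the floor of 3 UMIs is 0.758 CPM. In OPC-like cells 8 of 32 members were higher and 5 lower from P4 to Adult, against 12.9% and 10.3% of all genes. Without Scrublet-marked cells, 4 of 27 were higher, against 12.5% of all genes. *Unc5c*, a netrin-1 receptor, was at 119, 118, 195 and 205 CPM in the same cells, and *Unc5b* was at 2.59, 2.22, 3.78 and 5.31 CPM. *Epha5* was at 188, 170, 170 and 263 CPM, and *Robo1* was at 157, 122, 165 and 118 CPM. *Efnb3* was at 87.8, 175, 138 and 106 CPM in OPC-like cells, beside 144 CPM in microglia-like cells of P4, and without the adult level seen in oligodendrocyte-like cells. *Efna3* was at 25.9, 60.8, 26.5 and 61.7 CPM. *Slit2* was at 61, 25.6, 21.7 and 27.9 CPM, and *Ntng1* was at 15.6, 5.79, 7.56 and 11.9 CPM.

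**Figure D5:**
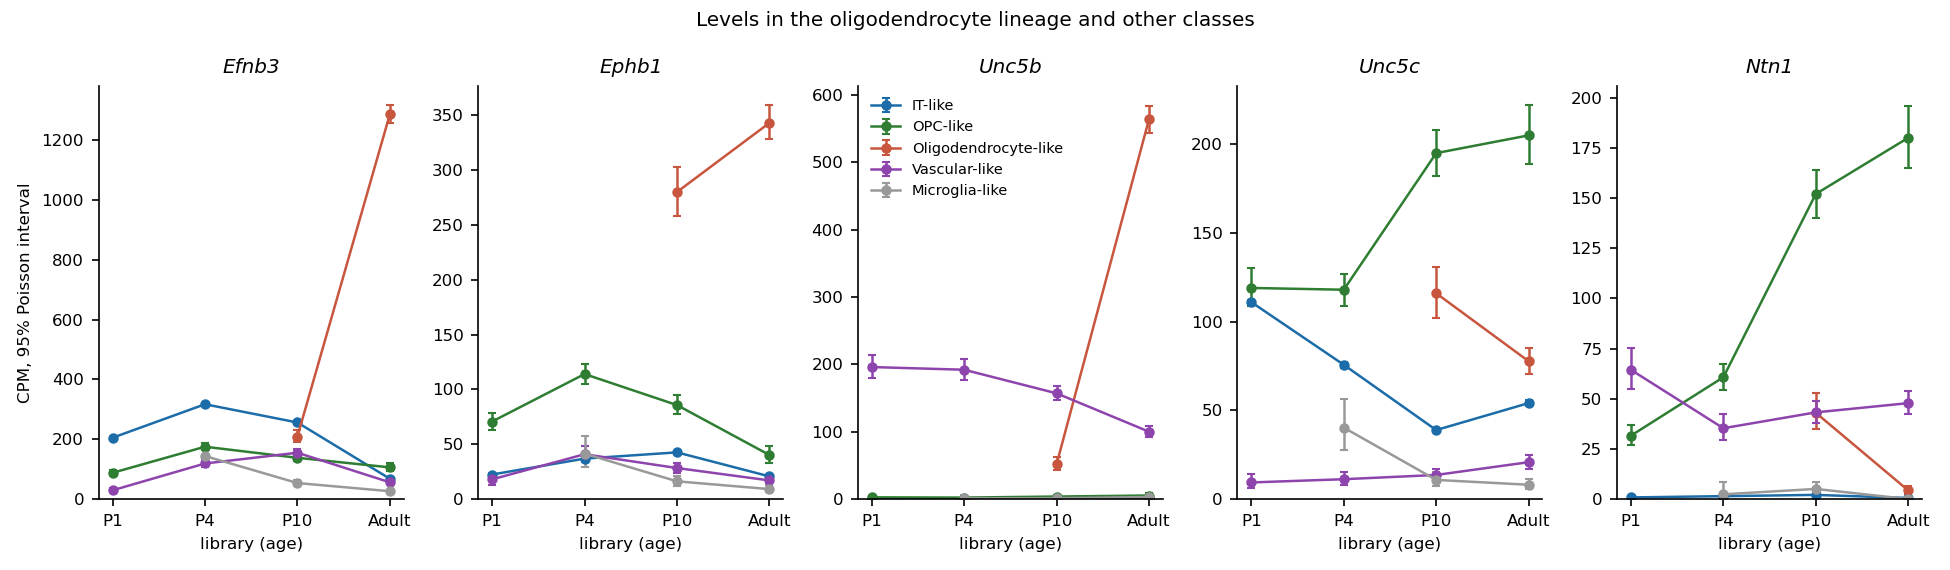
CPM with exact 95% Poisson intervals of *Efnb3*, *Ephb1*, *Unc5b*, *Unc5c* and *Ntn1* at each age in IT-like, OPC-like, oligodendrocyte-like, vascular-like and microglia-like cells. *Efnb3* and *Unc5b* reach 1286 and 564 CPM in adult oligodendrocyte-like cells, and *Ntn1* reaches 180 CPM in adult OPC-like cells.

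In astrocyte-like cells, 1 of 31 members was higher and 15 were lower in Adult than in P4, against 12.1% and 18.3% of all genes, and the members' median log2 ratio was -0.99 beside -0.22 for all genes. The median became -0.55 beside -0.16 at clustering resolution 1.0 and -0.64 beside -0.17 without Scrublet-marked cells. Microglia-like cells moved the same way, with 0 of 22 members higher and 16 lower, against 14.5% and 20.1% of all genes, and a median of -2.06 beside -0.11 for all genes. The microglia-like median was less negative without Scrublet-marked cells, as listed in the section on processing. *Ntn4*, a netrin that also binds laminins, was at 173, 54.7, 16.1 and 6.34 CPM, a log2 ratio of -3.11. *Unc5d* was at 178, 69.1, 14.2 and 6.17 CPM, a log2 ratio of -3.49 (-4.02 to -3.00), and *Slit2* was at 75.9, 22.7, 11.7 and 10.8 CPM, beside 9.44 and 8.59 CPM in microglia-like cells at P10 and Adult. *Ntn4* was 7.7-fold above the microglia-like level at P4 and 6.28-fold at Adult. *Unc5d* was 3.89-fold (2.34 to 6.99) above it at P4 and 1.36-fold (0.748 to 2.54) at Adult.

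*Ephb3* was the member that was higher in adult astrocyte-like cells, at 18.8, 31.5, 55.4 and 70.5 CPM. *Epha4*, an Eph receptor of both ephrin classes, was at 372, 259, 217 and 185 CPM, and *Neo1* was at 164, 207, 168 and 127 CPM. *Ephb1* was at 101, 66, 110 and 109 CPM. *Efna3* was at 39.3, 67.1, 22.4 and 27.8 CPM, and its log2 ratio of Adult over P4 of -1.27 became 0.25 at clustering resolution 1.0. *Ntng1* was at 31.3, 7.12, 6.19 and 7.05 CPM. Some of the lower members were close to background at P4. *Efnb3* was at 110, 181, 71.2 and 31.9 CPM in astrocyte-like cells, and at 144 CPM in microglia-like cells of P4. *Robo2* was at 241, 150, 80.6 and 49 CPM, beside 129 CPM in microglia-like cells of P4. The part of RNA from other cells in the astrocyte-like counts was not tested.

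Vascular-like cells had 9 of 31 members higher and 4 lower in Adult than in P4, against 16.7% and 13.1% of all genes. The class held 77 endothelial-like and 35 mural-like cells at P1 and 832 and 120 at Adult, whereas its 308 cells at P4 formed 1 endothelial-like cluster, from which 44 mural-like cells separated only at clustering resolution 1.0. In the endothelial-like cluster alone, 9 of 31 members were higher and 5 lower, against 16.4% and 13.8% of all genes. At resolution 1.0, 3 of 29 were higher and 6 lower, against 14.9% and 13.7% of all genes. There an adult cluster of 131 cells with endothelial genes, 79.4% of them marked by Scrublet as likely doublets and with a median of 16901 UMIs, left the class. The log2 ratio of Adult over P4 then became 0.43 in place of 2.24 for *Ntng1* and 0.62 in place of 1.23 for *Epha4*, while that of *Ntn4* was 5.82 in place of 5.23. *Unc5b* was at 196, 192, 157 and 100 CPM, and *Ephb4*, the receptor of venous endothelium, was at 93.7, 71.9, 52.1 and 49.7 CPM. *Efnb2*, the ligand of arterial endothelium, was at 70.7, 82.8, 61.6 and 80.6 CPM, and *Efna1* was at 64, 35, 20.6 and 18.9 CPM. At P1, *Unc5b* was 20.3-fold (16.5 to 25) and *Ephb4* 5.17-fold (4.28 to 6.23) above the next named class, and an unnamed cluster of 54 cells led by *Reln* held 212 CPM of *Unc5b*. *Ntn1* was at 64.4, 35.3, 43.2 and 47.8 CPM in the class, at 25.4, 35.3, 31.7 and 37.2 CPM in its endothelial-like cluster alone, and at 363 and 166 CPM in mural-like cells at P10 and Adult. *Robo2* was at 51.9, 60.8, 93.7 and 76.5 CPM, beside 129 CPM in microglia-like cells of P4, *Slit2* at 10.9, 12.1, 15.5 and 19.6 CPM, and *Ntng1* at 1.56, 3.72, 11.4 and 17.5 CPM. *Efnb3* was at 29.3, 119, 155 and 56 CPM, and at P4 it was below the 144 CPM of microglia-like cells.

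*Ntn4* was at 2.73, 2.17, 4.42 and 81.4 CPM in vascular-like cells, a log2 ratio of Adult over P4 of 5.23 (4.18 to 6.55). The level differed within the class. The endothelial-like cluster alone held 2.17, 4.58 and 40.6 CPM from P4 to Adult. In the adult library a cluster of 37 cells led by the smooth muscle genes *Acta2* and *Myh11* held 1577 CPM (1382 to 1792), and a cluster of 83 cells led by *Vtn* and *Rgs5* held 64.5 CPM (39.9 to 98.6). Mural-like cells held 541 CPM at Adult, and at P10 they held no *Ntn4* UMI, where the floor of 3 UMIs is 15.8 CPM. *Acta2* itself was at 84.3 CPM in mural-like cells at P10 and 3066 CPM at Adult. The part of this difference in the *Ntn4* values was not tested.

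*Epha4* was at 71.9, 98, 176 and 231 CPM in vascular-like cells. Its P4 level was below the 129 CPM of microglia-like cells, whereas its adult level, which includes the Scrublet-marked cells described above, was 7.08-fold (5.9 to 8.54) above them. Microglia-like cells had the highest level of no member at P4, P10 or Adult, whereas at Adult they led 19.4% of all genes.

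Of the other guidance genes, a list of 33 of which 32 were in the files, 8 of 27 measured in IT-like neurons were higher and 9 lower in Adult than in P4, against the 16.5% and 20% of all genes given above. *Draxin*, a secreted repellent that binds *Dcc* and netrin-1, was at 53.5 CPM at P4 and 0.0778 CPM at Adult, and *Srgap1*, which acts below Robo receptors, was at 216 and 13.2 CPM. *Chn1* and *Ngef*, which act below Eph receptors, were at 233 and 44.4 CPM at P4 and at 1888 and 230 CPM at Adult. *Lrrc4c*, the partner of *Ntng1*, was at 166 and 413 CPM.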

How the data were processed

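Single-cell RNA-seq libraries of prefrontal cortex from 4 ages, 1 library per age, were made by the authors on the BD Rhapsody system. The authors deposited raw UMI counts per cell and gene. The file headers name the BD Rhapsody pipeline, version 1.11 for P1 and 1.8 for the others, with the GENCODE M19 annotation of GRCm38, and the submitters' processing notes name mm10. Total counts were 340724049, 273834131, 287594712 and 200198548 UMIs at P1, P4, P10 and Adult.

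Cells with fewer than 1000 UMIs, fewer than 1000 genes or over 15% mitochondrial UMIs were removed, as in the study. Each library was clustered on its own (2000 variable genes, 30 components, Leiden resolution 0.5; scanpy 1.11.5, leidenalg 0.10.2, Python 3.11.15). Clusters were named from marker lists, with naming thresholds set after cluster scores had been seen. Clusters below the thresholds stayed unnamed and entered no class, 377 to 1919 cells per library. So did clusters with a Scrublet-marked share of at least 0.5, hemoglobin genes, genes of another class or low UMIs, which that number includes. Scrublet marked 5.33% to 9.67% of cells. Marked cells in named clusters were kept, and an alternative without them was run.

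UMIs were summed per class and library, for classes of at least 50 cells, and expressed as CPM. Intervals are exact 95% Poisson, conditional binomial for ratios and Clopper-Pearson for shares. A gene at 0 was set to 3 UMIs before a ratio. A call was a 2-fold ratio. No test was possible with 1 library per age. The calculation of ratios and intervals was run on simulated class totals with counting noise only, which does not check the sums or the age differences. TMM factors came from edgeR 4.0.16 in R 4.3.3. Values in every library are given for members past 4-fold between P4 and Adult in IT-like neurons, the 5 members of highest level there, the leading member of each family in each group of classes and the members the study discusses. The members and lists were chosen with earlier results of these data known. The *Vtn*- and *Acta2*-led vascular clusters and counts in the endothelial-like cluster alone were examined after seeing the data.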

Additional observations from a re-analysis of the deposited data

Results flagged for a closer look

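Microglia-like cells were left out of this comparison of classes. Of the members of at least 20 CPM, 8 differences between ages went past 2-fold in one direction in one class and past 2-fold in the other direction in another class. There were 4 from P4 to Adult and 4 from P10 to Adult, each among 27 members that could be compared in at least 2 classes. By the same rule 3.01% of all 9638 genes differed in this way from P4 to Adult, and 3.45% of 9672 from P10 to Adult. The difference between the classes was not tested, since each class has 1 library per age.

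*Efnb3* had a log2 ratio of Adult over P10 of 2.62 in oligodendrocyte-like cells and of -1.91 in IT-like neurons (256 and 68 CPM). Of the classes compared, 7 were lower by 2-fold or more. Microglia-like cells, which were left out, held 53.6 CPM at P10 and 26.3 CPM at Adult. *Ntn4* had a log2 ratio of Adult over P4 of 5.23 in vascular-like cells and of -3.11 in astrocyte-like cells. From P10 to Adult, *Ntn4* had a log2 ratio of 4.20 in vascular-like cells and of -1.38 in Vip- and Lamp5-like neurons (20.1 and 7.76 CPM). *Slit2* had a log2 ratio of Adult over P4 of 1.77 in IT-like neurons and of -1.08 in astrocyte-like cells. *Efna5* had a log2 ratio of Adult over P4 of 1.88 in IT-like neurons and of -1.55 in L6 CT-like neurons. *Epha4* had a log2 ratio of Adult over P4 of 1.23 in vascular-like cells and of -1.13 in Vip- and Lamp5-like neurons (166 and 75.7 CPM). At clustering resolution 1.0 the vascular-like ratio of *Epha4* was 0.62.

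From P10 to Adult, *Epha7* had a log2 ratio of 1.17 in OPC-like cells (20.1 and 45.1 CPM) and of -1.02 in oligodendrocyte-like cells (25.2 and 12.4 CPM). *Ephb6* had a log2 ratio of 1.25 in L5 PT-like neurons (27.7 and 65.7 CPM) and of -1.03 in oligodendrocyte-like cells (29 and 14.2 CPM). Without Scrublet-marked cells the oligodendrocyte-like ratios were -0.55 for *Epha7* and -0.81 for *Ephb6*.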

How the results depend on the processing

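Log2 ratios of measured members past 2-fold were recomputed under other settings. These were IT-like neurons (P1 to P4, P4 to Adult) and oligodendrocyte-like cells (P10 to Adult). From P4 to Adult they were also OPC-, vascular-, astrocyte-, L5 PT- and L6 CT-like cells and the Sst- and Pvalb-like class. Of the recomputed ratios, 637 stayed within their counting interval, 124 left it and 1 changed sign. That 1 was *Efna3* in astrocyte-like cells, Adult over P4 (-1.27 and 0.25 at clustering resolution 1.0). Ratios within 2-fold and those of other classes were not recomputed in this way. In IT-like neurons from P1 to P4, the 1 member higher became 0 at resolution 1.0, without Scrublet-marked cells, with CPM over all genes, with minimums of 30 UMIs and 20 CPM or at 4-fold, 2 under median-of-ratios or TMM scaling and 3 without a minimum. The 8 lower became 5 under TMM and 3 at 4-fold. The median of -0.22 became -0.37, -0.36 and -0.37 under the first 3 settings, -0.13 under median-of-ratios, -0.05 under TMM, -0.53 with the higher minimums and -0.04 without one. The members' median less that of all genes, -0.13, became 0.00 against genes of the same span.

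From P4 to P10, the 5 higher became 2 with the higher minimums and 3 at 4-fold, and the 3 lower became 1, 5 without a minimum and 1 at 4-fold. The median of 0.12 became 0.22 under median-of-ratios, -0.17 with the higher minimums and -0.01 without one. From P10 to Adult, the 2 higher became 1 with the strict cell filter, 4 under TMM and 0 at 4-fold, and the 9 lower became 0 at 4-fold. From P4 to Adult, the 8 higher became 3 at 4-fold, and the median of -0.10 became 0.02 under median-of-ratios and 0.00 under TMM.

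In the other classes, 4-fold calls aside, 19 counts of members past 2-fold moved by over 1.5 times and 143 did not, and 11 medians moved by more than the counting interval and 70 did not. At resolution 1.0, vascular-like cells had 3 higher in place of 9, and medians became -0.19 in place of 0.43 there, -0.55 in place of -0.99 in astrocyte-like, 0.54 in place of 0.11 in OPC-like and -0.26 in place of -0.48 in Sst- and Pvalb-like cells. Without Scrublet-marked cells, OPC-like cells had 4 higher in place of 8, astrocyte-like cells 2 in place of 1 and oligodendrocyte-like cells 4 lower in place of 11 (6 under median-of-ratios or TMM scaling), and medians became -0.64 in astrocyte-like, -0.10 in vascular-like and -1.34 in place of -2.06 in microglia-like cells. The higher minimums lowered 6 counts of members higher, to between 1 and 4. At resolution 1.0, without Scrublet-marked cells and with the strict cell filter, each age kept its leading class for most members: at least 30 of 36 in the P1 library, 31 of 35 in P4, 31 of 36 in P10 and 33 of 36 in Adult. No paired analysis was possible because each age has 1 library. Leaving out a library leaves an age without a sample.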

Other observations

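A small unnamed cluster was found at P1, P4 and P10, with 54, 124 and 75 cells, led by *Reln*, *Ndnf*, *Nhlh2* and *Trp73*. *Reln* encodes a secreted protein that positions migrating cortical neurons. The cluster held 212, 230 and 186 CPM of *Unc5b*, which was 274-fold (220 to 344), 420-fold (320 to 557) and 451-fold (321 to 647) above IT-like neurons of the same library.

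It also carried more *Epha3*, at 276, 113 and 94.9 CPM (3.73-, 3.42- and 4.14-fold above IT-like neurons), more *Robo2*, at 912, 792 and 600 CPM (1.93-, 3.37- and 2.05-fold), and more *Ntng2*, at 72.8, 32.9 and 42.6 CPM (2.22-, 5.28- and 4.98-fold). *Epha4* was lower than in IT-like neurons, at 13.9, 58.4 and 124 CPM (0.0617-, 0.152- and 0.205-fold). *Unc5d* at P1 was at 16.7 CPM (0.13-fold). These values were chosen after they were seen, and the cluster has 1 library per age.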
